A study of Mus musculus with 3 samples.

Results

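The 31 genes described here encode proteins of the skeletal muscle contractile apparatus, with the calcium handling, oxygen and energy genes and the myogenic transcription factors that go with it. They were taken by name from a list, out of 20886 genes named on the arrays, and all 31 had at least 1 probe (39 probes in all, 25 genes with 1 probe and 6 with more). The list was chosen by signals measured on these same arrays, where Myl1 and other muscle genes were far lower with DKK2 than in high glucose. Its differences in the comparisons with DKK2 are therefore a description, and no test was made.

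The cells were labelled as primary endothelial cells from the cavernous tissue of the penis of C57BL/6 mice, grown in medium with serum and vascular endothelial growth factor A. They were kept for 48 h in normal glucose (5 mmol as labelled), in high glucose (30 mmol) or in high glucose with DKK2, a secreted modulator of Wnt signalling (the sources used here state no dose for it). Each condition was 1 single-colour Agilent array, hybridised with RNA pooled from 3 samples. There was thus no spread between cultures and no p-value, and an effect of the single array or its place on the slide cannot be told apart from that of the condition.

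In skeletal muscle, myosin heavy chains pull on actin filaments, and light chains sit on the lever arm of each heavy chain. Troponin and tropomyosin hold the actin filament off until calcium, released from the sarcoplasmic reticulum, binds troponin C. The myogenic factors, of the basic helix-loop-helix family, bind E-box sequences and switch on this set of genes when precursor cells fuse into muscle fibres.

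Levels are given as scaled signal. This is the scanner's processed intensity, multiplied on each array so that its 75th percentile equals that of the high glucose array (2380; it was 1201 in normal glucose and 2417 with DKK2 before scaling). No spot was saturated. A probe was read only as "well above background" or not, by the scanner's flag, and the lowest unscaled signal so flagged was between 7.22 and 7.97. A log2 difference of 1 member between 2 arrays had a scanner error SD of 0.20 to 0.35, which covers technical error only. "Lower" and "higher" for a count mean at least 2-fold, and the number of arrays limits the precision. Normexp, another background correction with a fixed offset, gave other differences for dim probes, and its value is set beside the main one where it matters. It moved the median of all genes from 0.09 to -0.26 in high against normal glucose. In DKK2 against normal glucose that median moved from 0.12 to -0.25. The offset was the same on each array and was added before scaling. It therefore weighed most on the normal glucose array, whose unscaled signals were lowest.

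Signal well above background was found for 29 of the 31 members on 1 or more arrays and for 24 on all 3. The calcium store gene Casq1 and the early myogenic factor gene Myf5 were not well above background on any array. In normal glucose 28 members passed this flag, in high glucose 29, and with DKK2 25. Many were dim, with an unscaled signal under 100 for 18 of 29 in normal and 13 in high glucose, and 18 with DKK2. Most of the list was thus measurable on every array, often at low signal.

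**Figure D1:**
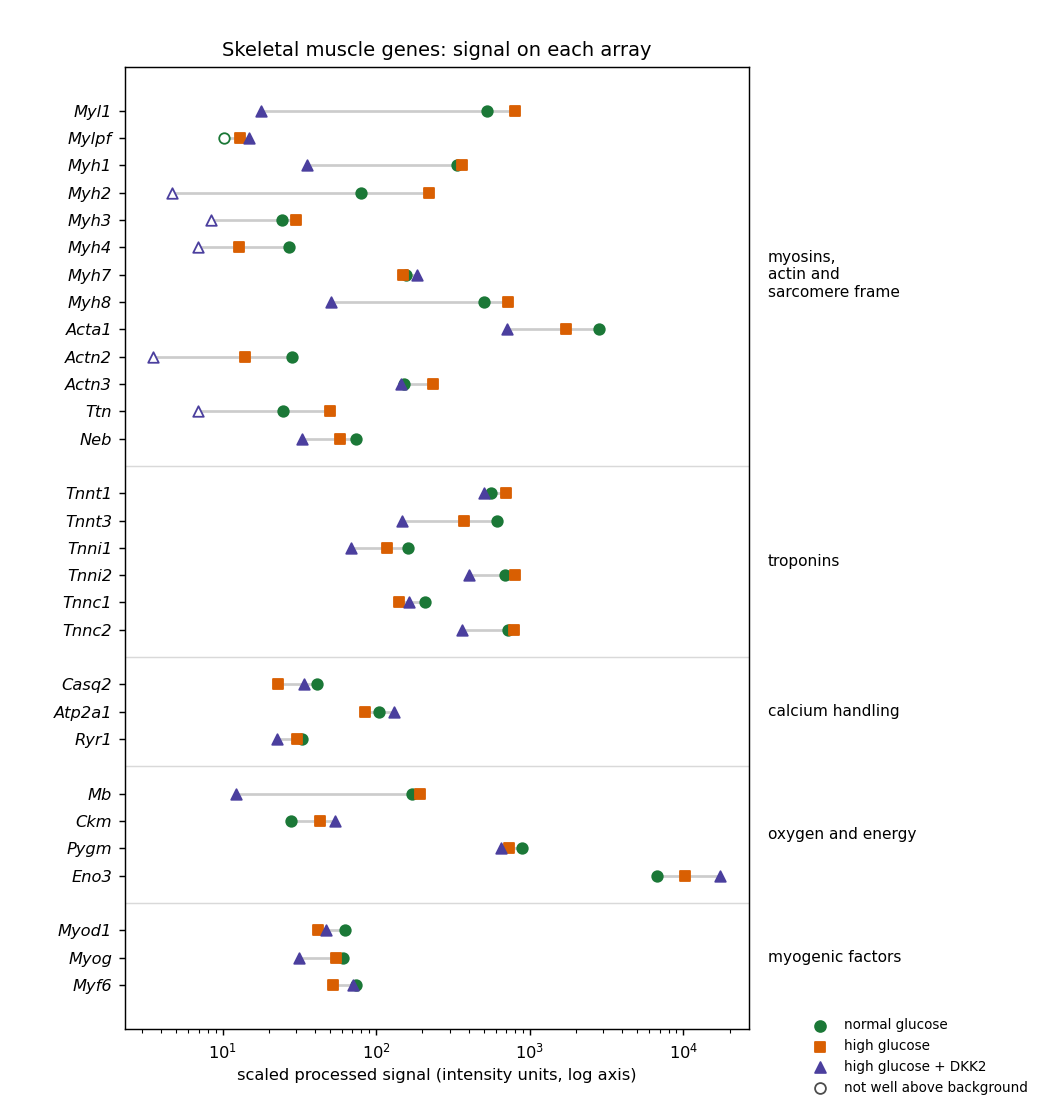
Scaled processed signal (log axis, intensity units) of the 29 members that were well above background on at least 1 array, with 1 symbol per array and open symbols where the probe was not well above background. Myl1, Myh1, Myh2, Myh8 and Mb sit far to the left with DKK2, while Eno3 sits to the right of its own values in the other arrays.

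The largest measured differences lay in Myl1, Mb, Myh8 and Myh1, with DKK2 low in each. Myl1, the fast muscle essential myosin light chain, had a scaled signal of 525 in normal and 795 in high glucose, and of 17.9 with DKK2. The DKK2 array stood far below the other two. Its log2 difference from high glucose was -5.47 (scanner error SD 0.27, -3.17 with normexp) and from normal glucose -4.87 (SD 0.27, -2.97 with normexp), while high against normal glucose was 0.60. A second Myl1 probe, named by another transcript, passed the background flag on the high glucose array alone, with scaled signals of 3.03, 26.6 and 1.57 in the same order.

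Myh8, the perinatal myosin heavy chain, read 503 in normal and 720 in high glucose, and 50.5 with DKK2. The difference between DKK2 and high glucose was -3.83 (SD 0.21, -2.57 with normexp). Another Myh8 probe was not well above background on any array. Myh1, the fast type IIx heavy chain, read 335, 359.9 and 35.5 in the same order, with the glucose arrays close together and DKK2 low. Its difference with DKK2 was -3.34 (SD 0.22, -1.91 with normexp).

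Myh2, the type IIa heavy chain, read 80.1 in normal glucose and 222 in high glucose, and was not well above background with DKK2 (4.72). It was at least 28.3-fold lower with DKK2 than in high glucose and at least 10.2-fold lower than in normal glucose. These bounds set the brighter array against the lowest signal well above background on the dimmer one, or against the dim probe's own signal if that was higher. Myh2 was also higher in high than in normal glucose by 1.47 (SD 0.22), but with normexp this difference was -0.23.

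Myh3, the embryonic heavy chain, was dim: 24.4, 29.9 and, not well above background, 8.35 with DKK2. It was at least 3.57-fold lower with DKK2 than in high glucose, and its second probe, at 30.5, 37.9 and 4.53, had the same order of arrays. Myh4, the type IIb heavy chain of the fastest fibres, was close to background (27.1, 12.8 and 6.93), with a bound of only 1.63-fold between high glucose and DKK2. Myh7, the slow heavy chain shared with heart, did not go with Myh1, Myh2 and Myh8. It read 157, 149 and 185, and its difference with DKK2 was 0.31 (SD 0.20). Mylpf, the regulatory light chain of fast muscle, read 10.2 (not well above background), 13.0 and 15.0, too near background to show a large fall. Among the myosins, the low signal with DKK2 was thus seen for Myl1, Myh1, Myh2, Myh3 and Myh8 and not for Myh7. No split of fast from slow genes is read from this. Atp2a1 of fast fibres stood at 0.63 and the slow Tnni1 at -0.77 in that comparison.

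Myh3, Myh2, Myh1, Myh4 and Myh8 are direct neighbours on mouse chromosome 11, in this order, with no other protein-coding gene between them in the RefSeq table (assembly GRCm38), while Myh7 is on chromosome 14. Their coding sequences are alike and probe sequences were not used here, so signal could be shared between these probes. To show what the promoters of 4 of these neighbours have in common, the 250 bases before the RefSeq gene start are given. They are from RefSeq (build GRCm38.p6, plus strand), for Myh2 at chr11:67170777-67171026, Myh1 at chr11:67199852-67200101, Myh4 at chr11:67237562-67237811 and Myh8 at chr11:67276874-67277123. Myh3 was not among the windows compared. Capitals mark the longest run that all 4 windows share, 14 bases.
Myh2: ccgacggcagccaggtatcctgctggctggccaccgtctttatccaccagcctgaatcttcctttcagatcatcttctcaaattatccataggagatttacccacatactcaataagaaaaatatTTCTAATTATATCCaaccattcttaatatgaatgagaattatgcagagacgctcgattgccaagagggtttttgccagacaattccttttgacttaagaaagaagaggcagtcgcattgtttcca
Myh1: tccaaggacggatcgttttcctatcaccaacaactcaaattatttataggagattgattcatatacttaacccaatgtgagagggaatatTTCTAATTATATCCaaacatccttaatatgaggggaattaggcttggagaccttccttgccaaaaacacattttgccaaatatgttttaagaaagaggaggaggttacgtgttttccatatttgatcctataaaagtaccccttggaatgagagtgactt
Myh4: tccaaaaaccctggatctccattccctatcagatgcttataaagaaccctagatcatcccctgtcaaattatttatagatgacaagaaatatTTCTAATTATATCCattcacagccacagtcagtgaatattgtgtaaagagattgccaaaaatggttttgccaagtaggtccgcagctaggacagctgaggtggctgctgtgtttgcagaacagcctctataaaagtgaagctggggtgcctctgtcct
Myh8: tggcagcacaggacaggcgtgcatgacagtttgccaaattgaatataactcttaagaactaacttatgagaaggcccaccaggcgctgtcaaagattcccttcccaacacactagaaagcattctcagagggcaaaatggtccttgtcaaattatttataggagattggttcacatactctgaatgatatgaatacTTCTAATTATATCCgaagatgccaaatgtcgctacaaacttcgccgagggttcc
The run starts 125, 160, 158 and 54 bases before the gene start, in the same order. Of 32851 promoter windows of this length, searched on both strands, only these 4 held it. It was picked because the 4 windows share it, so this count describes the run and is no test. Myh4 carries the run as well, and its signal was near background on all arrays. The window of Myh3 does not hold it, though Myh3 was also low with DKK2.

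Across the members, 25 of 31 had a promoter window in the RefSeq table, 29 windows in all, some of them overlapping starts of 1 gene. The E-box CANNTG, on both strands, was present in 25 of these 29 windows and in 66.2% of all windows. Its form CAGCTG, a subset of CANNTG, was present in 12 of 29 (41.4%) and in 13% of all. The sequence TATAAA was in 7 of 29 (12.4% of all) and the CArG box in 2 of 29 (1.47% of all). The window of Myl1, the member with the largest measured difference, is at chr1:66945057-66945306 on the minus strand, with an E-box and a reversed TATAAA in capitals.
Myl1: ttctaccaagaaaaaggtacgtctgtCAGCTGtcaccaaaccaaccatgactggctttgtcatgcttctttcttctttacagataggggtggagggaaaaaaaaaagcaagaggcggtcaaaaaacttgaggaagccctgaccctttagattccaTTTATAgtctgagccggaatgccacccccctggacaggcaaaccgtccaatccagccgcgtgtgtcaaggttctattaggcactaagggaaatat
Myh2, Myh1, Ryr1 and Myf5 had no CANNTG in their windows. Whether any of these motifs bears on the differences between arrays was not tested.

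Among the filament and Z-disc genes the differences were smaller. Acta1, the skeletal alpha-actin, read 2825 in normal and 1712 in high glucose, and 708 with DKK2. It was lower with DKK2 by -1.27 (SD 0.20, -1.15 with normexp) than in high glucose and by -2.00 than in normal glucose. Its level went down in the order normal glucose, high glucose, DKK2, unlike that of Myl1, which was highest in high glucose. Neb, which encodes nebulin along the thin filament, read 73.4, 57.9 and 32.7. It stood at -0.83 (SD 0.22, -0.27 with normexp) with DKK2 against high glucose, and its second probe was at -0.84.

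Actn2 and Actn3 encode alpha-actinins, which anchor actin in the Z-disc. Actn3, the fast fibre form, read 151, 233 and 145, a difference of -0.69 (SD 0.20) between DKK2 and high glucose and of -0.06 between DKK2 and normal glucose. Actn2 read 28.5 and 14.1 and was not well above background with DKK2 (3.54), at least 1.80-fold lower than in high glucose and at least 3.64-fold lower than in normal glucose.

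Titin, the molecular spring of the sarcomere encoded by Ttn, gave no single answer. The brightest of its 4 probes read 24.8, 50.3 and 6.93 (not well above background with DKK2), a difference of 1.02 (SD 0.29) between high and normal glucose that was -1.19 with normexp. Another of its probes read 51.6, 13.7 and 9.91, which is -1.91 between high and normal glucose and -0.47 between DKK2 and high glucose. Both were lowest with DKK2, but they disagreed on which glucose array was brighter.

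The 6 troponin genes were well above background on all 3 arrays. Tnnt3, the fast tropomyosin-binding subunit, read 615 in normal and 375 in high glucose, and 148 with DKK2. It was lower with DKK2 than in high glucose by -1.34 (SD 0.20, -1.06 with normexp), and its second probe stood at -0.86. Against normal glucose it stood at -2.05 (-1.93 with normexp), with the second probe at -1.33. Tnnc2, the fast calcium-binding subunit, read 721, 787 and 363, and stood at -1.12 (SD 0.20, -0.95 with normexp). Tnni2, the fast inhibitory subunit, read 691, 796 and 399. At -0.996, it lay just outside the 2-fold limit that Tnnc2 passed.

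Of the slow troponins, Tnnt1 read 558, 701 and 506 (-0.47 with DKK2 against high glucose), and Tnni1, the slow inhibitory subunit, read 161, 118 and 69.0 (-0.77, and -1.23 against normal glucose). Tnnc1, which slow muscle shares with heart, read 208, 140 and 164 and was the only troponin above 0 in this comparison, at 0.23 (SD 0.21). With DKK2 against high glucose, 5 of the 6 troponins were below 0, beside 42.4% of all genes. At least 2-fold lower were 2 of them, beside 4.85% of all genes. The list was chosen by signals of this comparison, so nothing is read from these counts.

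None of the 3 measured genes of calcium handling was 2-fold apart between DKK2 and high glucose. With 4.85% of all genes lower and 5.08% higher there, nothing is read from this count. Atp2a1, the calcium pump of fast fibres, read 105, 84.6 and 131, with a difference of 0.63 (SD 0.21, 0.48 with normexp) between DKK2 and high glucose. Casq2, a calcium-binding protein of the reticulum, read 41.4, 23.1 and 33.8, and Ryr1, the calcium release channel, 32.7, 30.4 and 22.6. Their differences with DKK2 against high glucose were 0.55 (SD 0.25) and -0.42 (SD 0.25). Between DKK2 and normal glucose, Atp2a1 stood at 0.32, Casq2 at -0.29 and Ryr1 at -0.53. With normexp these were -0.70, -1.48 and -1.60, so that Casq2 and Ryr1 passed 2-fold and Atp2a1 lay on the other side of 0. The median of all genes was then -0.25, so these shifts were not particular to the calcium genes.

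The oxygen and energy genes went apart. Mb, which encodes the oxygen store myoglobin, read 172 in normal and 194 in high glucose, and 12.2 with DKK2. Only the DKK2 array was low, with a difference of -3.99 (SD 0.29, -1.73 with normexp) from high glucose and -3.82 from normal glucose. Eno3, the muscle form of the glycolytic enzyme enolase, was highest with DKK2. It read 6689, 10299 and 17394, so that DKK2 stood above high glucose by 0.76 (SD 0.20, 0.76 with normexp) and above normal glucose by 1.38 (1.43 with normexp).

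Ckm, the muscle creatine kinase, was dim, at 27.9, 42.8 and 54.2. It stood at 0.34 (SD 0.21) with DKK2 against high glucose and at 0.96 (SD 0.27) against normal glucose, but at -1.10 there with normexp. Pygm, the muscle glycogen phosphorylase that frees glucose units from glycogen, read 886, 729 and 654. Its differences lay between -0.44 and -0.16 in the 3 comparisons.

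**Figure D2:**
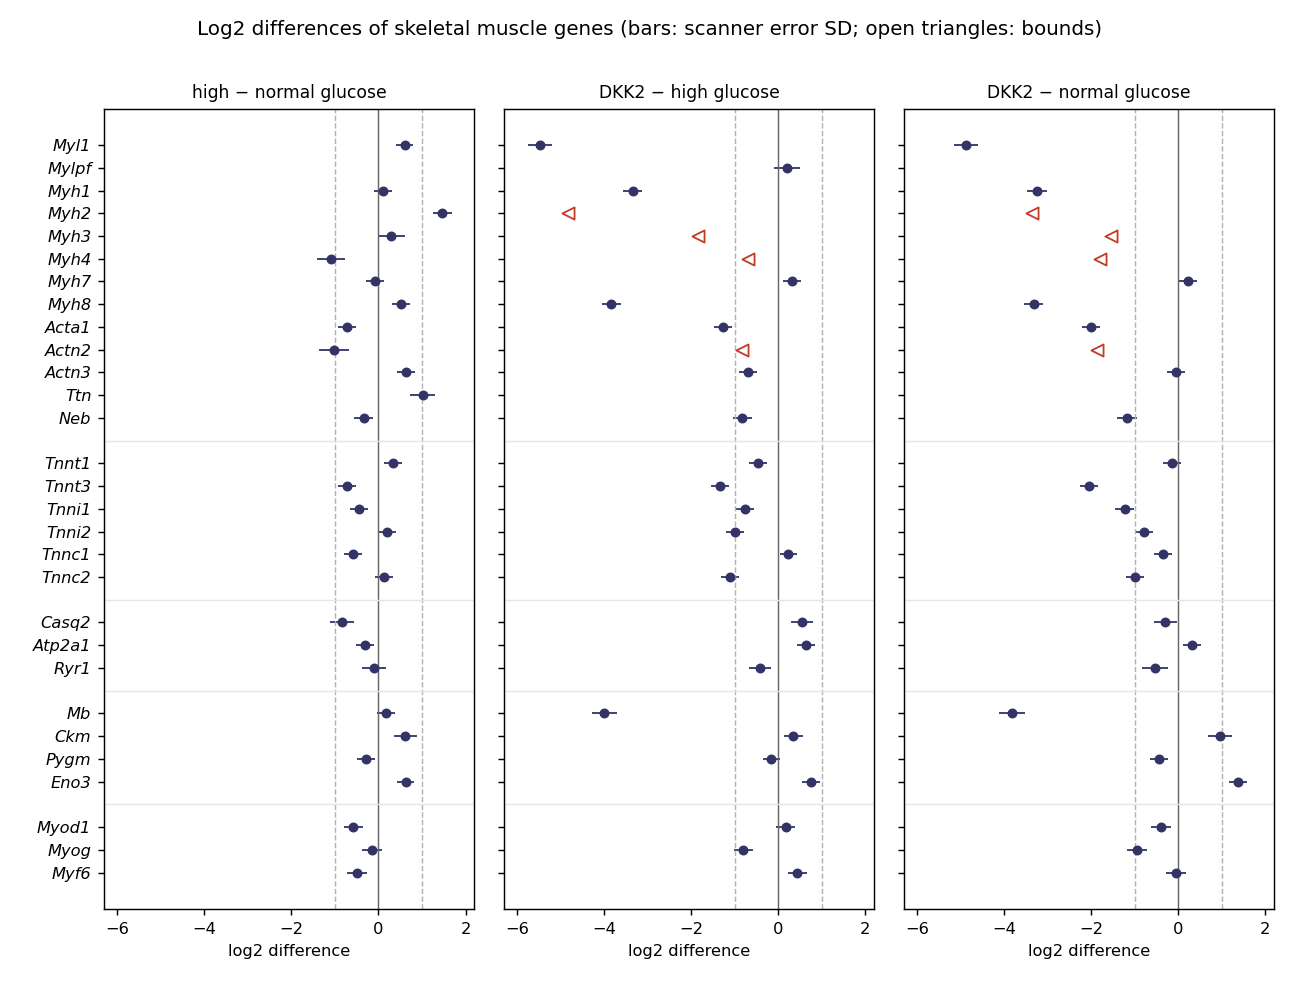
Log2 differences of each member in the 3 comparisons, with bars for the scanner error SD and open triangles for bounds where the DKK2 array was not well above background. In both comparisons with DKK2, Myl1, Myh1, Myh8 and Mb lie at -3 or below and most others within 2 of 0, while in high against normal glucose no member lies beyond 1.47.

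The myogenic factors were measured most closely, because the probes of Myod1, Myog and Myf5 were spotted 10 times per array. Myod1, which commits cells to the muscle lineage, had a scaled signal of 64.0 ± 14.3 in normal glucose (SD over 10 spots of 1 array), 43.2 ± 10.1 in high glucose (10 spots) and 47.6 ± 5.45 with DKK2 (8 spots after outliers were left out). The spots of the high glucose and DKK2 arrays overlapped. Myog, which drives differentiation into fibres, read 61.2 ± 5.92, 55.4 ± 7.0 and 31.8 ± 3.72. Its highest spot with DKK2 (36.9) was below the lowest in high glucose (42.1), and the log2 difference was -0.80 (scanner SD 0.22), or -0.25 with normexp. Spots of 1 array share its RNA, so this spread is technical.

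Myf5 stayed at 8.52, 3.89 and 2.76, with none of its 10 spots well above background on any array. Myf6, a factor of mature fibres, read 73.4, 52.3 and 70.8, with a difference of 0.44 (SD 0.22) between DKK2 and high glucose. Myod1 stood at 0.17 in that comparison. None of the 3 measured factors was 2-fold apart there. Of all genes 4.85% were lower and 5.08% higher, so nothing is read from this count.

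**Figure D3:**
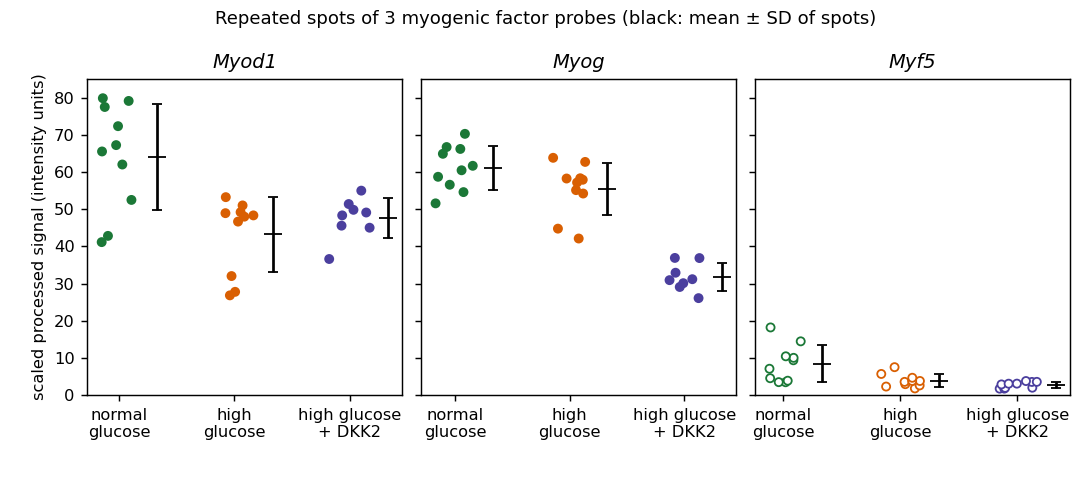
Scaled signal of each repeated spot of the Myod1, Myog and Myf5 probes on the 3 arrays, with the mean and SD over spots in black and open symbols for spots not well above background. The Myog spots with DKK2 lie between 26.1 and 36.9, under all those of the other arrays, while the Myod1 spots of high glucose and DKK2 overlap.

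Counted over the list, DKK2 against high glucose had 7 of 24 members measured on both arrays lower and 0 higher, beside 4.85% of 17825 genes lower and 5.08% higher. Below 0 were 15 of the 24, beside 42.4% of all genes. The 7 were Myl1, Myh8, Myh1, Mb, Tnnt3, Acta1 and Tnnc2. With bounds included, Myh2 and Myh3 were lower as well (5.25% of all genes, with 5.53% higher). The median was -0.58, or -0.74 with bounds, against 0.08 over all genes. Since these low values prompted the list, nothing is read from its count.

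Against normal glucose, DKK2 had 8 of 23 members lower and 1, Eno3, higher, beside 10.4% and 10.5% of 16676 genes. Below 0 were 19 of the 23, beside 43.5% of all genes. Myl1, Mb, Myh8, Myh1, Tnnt3, Acta1, Tnni1 (-1.23) and Neb (-1.17) were the 8, and the bounds of Myh2, Myh4, Actn2 and Myh3 were also past 2-fold (10.8% of all genes with bounds, with 11.2% higher). The median was -0.53, or -0.95 with bounds, against 0.12 over all genes. This comparison shares the DKK2 array with the one above. With normexp, 15 of 23 members were lower, but so were 4005 genes in all, with 938 higher (1727 and 1744 in the main setting).

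High against normal glucose had 2 of 28 members lower and 2 higher, beside 5.73% and 2.67% of 16766 genes (5.98% and 3.01% with bounds). Below 0 were 15 of the 28, beside 43.6% of all genes. Myh4 (-1.09, SD 0.33) and Actn2 (-1.02, SD 0.35) were lower, both with signals near background. Myh2 and Ttn were higher, and both turned to the other side of 0 with normexp, as given above. The median was -0.09, against 0.09 over all genes. With normexp 14 of 28 members were lower and 0 higher, along with 3931 lower and 172 higher genes overall (960 and 448 in the main setting).

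**Figure D4:**
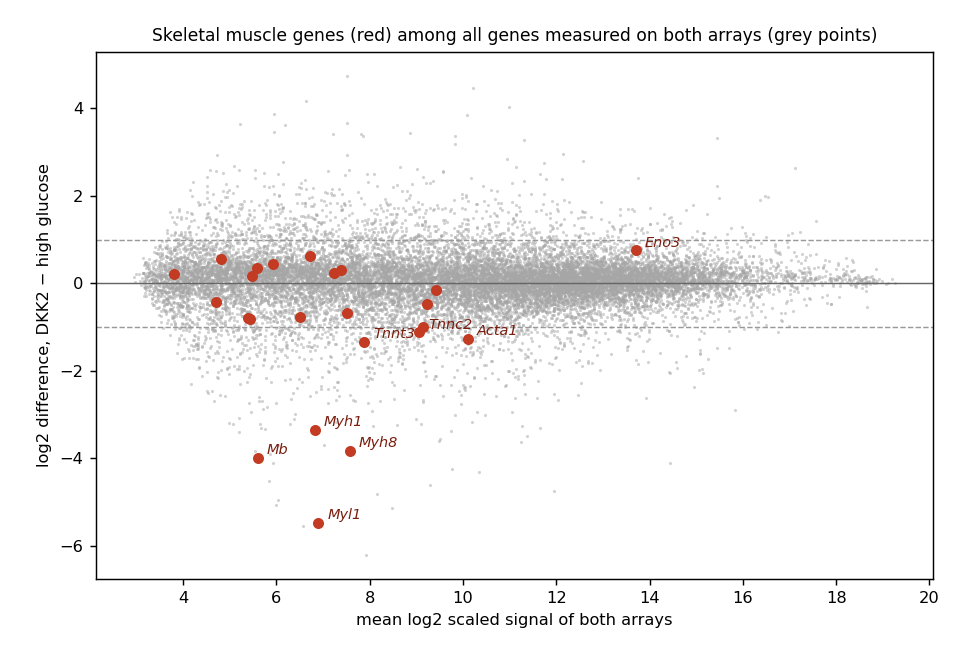
Log2 difference between DKK2 and high glucose (y axis) against the mean log2 scaled signal of both arrays (x axis) for all genes measured on both, with the members in red and names at those at least 2-fold apart and at Eno3. Myl1, Mb, Myh8 and Myh1 lie at the lower edge of the cloud among genes of low signal, and most other members lie inside it.

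Further muscle genes were taken from 4 lists, 100 gene symbols in all. The lists were written with earlier results of these arrays known, but the genes were not picked for their own values. In DKK2 against high glucose 87 were measured on both arrays, with 9 lower and 9 higher, beside the 4.85% and 5.08% of all genes, and a median of 0.06 against 0.08 over all genes. With normexp, 2 were lower and 3 higher. The sarcomere and Z-disc list then had 0 in either direction, the excitation and calcium list 1 lower and 0 higher, the energy list 0 and 2, and the regulators 1 and 1.

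Among 36 measured sarcomere and Z-disc genes, 2 were lower and 3 higher (median 0.11). Myom2, an M-band protein of fast fibres, was at -1.87 (-0.75 with normexp) and Myl3, the slow essential light chain, at -1.01, while Mybph, a myosin-binding protein, was at least 4.41-fold lower. Higher were Myot (1.40), which encodes the Z-disc protein myotilin, Tmod1 (1.25), which caps actin filaments, and Trim63 (1.16), a ubiquitin ligase of muscle wasting. The tropomyosin genes Tpm1, Tpm2 and Tpm3, which many cell types express, stood at 0.04, 0.15 and 0.20.

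Of 22 measured excitation and calcium genes, 4 were lower and 2 higher (median -0.21). Sln, which encodes sarcolipin, an inhibitor of the calcium pump, was at -2.11 (-0.50 with normexp). Pvalb, the calcium buffer parvalbumin, was at -1.26, and at 1.90 in high against normal glucose (0.32 with normexp). Dysf, a membrane repair protein, and Sypl2, a protein of the triad membranes, were higher by 1.00 and 1.21. Clcn1, not well above background in high glucose, was at least 2.04-fold higher.

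Of 13 muscle energy genes, 1 was lower and 3 were higher (median 0.14). The lower one was Cox8b (-1.08), a cytochrome oxidase subunit of muscle and brown fat, and Ckmt2, the mitochondrial creatine kinase, was at least 2.38-fold lower. Pgam2 (1.19), a glycolytic enzyme, Fabp3 (1.16), a fatty acid carrier, and Cox7a1 (1.05) were higher. Of 16 myogenic regulators, 2 were lower and 1 higher (median 0.11). Id2, an inhibitor of the myogenic factors, was at -1.12 (-1.12 with normexp) and Megf10, a satellite cell receptor, at -1.74, while the integrin gene Itga7 was at 1.40. The related inhibitors Id1 and Id3 stood at -0.99 each, just under 2-fold. Pax7, the marker of satellite cells, read 31.6, 57.1 and 72.5 (0.34 with DKK2 against high glucose).

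Markers of other cell types also differed between the arrays. Their counts stand beside 4.85% of all genes lower and 5.08% higher with DKK2 against high glucose. Against normal glucose these shares were 10.4% and 10.5%. With DKK2 against high glucose, 6 of 9 measured adipocyte markers were lower (median -1.88, Adipoq at -6.20), and their summed scaled signal was 37059 in normal and 56561 in high glucose, and 19457 with DKK2. Fibroblast markers were below 0 in 10 of 10 (42.4% of all genes), 3 of them by at least 2-fold (median -0.58). Their sums were 1224847, 1133687 and 808340. The adipocyte sum was mostly Fabp4, and the fibroblast sum mostly Dcn and Col1a2. Of 9 macrophage markers 6 were higher and none lower (median 1.61), with sums of 5815, 6815 and 19186. Cd68 and Pck1 of these lists were not read. Against high glucose, most adipocyte markers were thus low together with Myl1, Mb, Myh1, Myh2 and Myh8, and most macrophage markers were high. Lep and Cidec, also of the adipocyte list, stood at 0.18 and 0.32. Against normal glucose 4 of 9 adipocyte markers were lower and 3 were above 0 (median -0.71), beside -4.87 for Myl1 and -3.82 for Mb.

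Smooth muscle markers, the contractile cells of erectile tissue, had 3 of 9 lower (median -0.69). Acta2, the smooth muscle actin, read 98264, 50085 and 15715. The list summed to 149397, 101312 and 60906, and its fall was mostly through Acta2. Tagln read 36110, 36045 and 30866, and Smtn 11280, 9972 and 11317. Against high glucose 7 of the 9 were below 0 and 2 above. Against normal glucose 1 of 9 was lower, near the 10.4% of all genes, and 4 were above 0 (median -0.23). Among 8 cardiac markers 1 was lower (median -0.04). That one was Tnnt2, the cardiac troponin T that developing skeletal muscle also makes, at 137, 153 and 16.4 (-3.22, or -1.21 with normexp). Actc1, the cardiac actin that developing skeletal muscle also makes, was at least 5.58-fold lower. Myh6, the heart's own heavy chain, read 65.7, 54.1 and 61.5, and Nppa, a hormone of heart muscle, read 155, 198 and 224. Tnni3, the cardiac troponin I, read 337, 180.0 and 94.4, at -0.93 with DKK2 against high glucose and -1.84 against normal glucose (-1.74 with normexp).

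Of 12 endothelial markers 10, 12 and 11 were read well above background in normal glucose, high glucose and with DKK2. Kdr read 7228, 9128 and 10735 and Pecam1 267, 369 and 428, but Erg was not well above background in normal glucose or with DKK2. Against high glucose, 4 of 11 were lower with DKK2 (median -0.35), namely Robo4 (-1.60), Cldn5 (-1.25), Icam2 (-1.20) and Tek (-1.14). With normexp 1 of the 11, Robo4, was lower. The list summed to 8589, 12034 and 12622, mostly through Kdr. Of 6 myogenic precursor markers 2 were lower and 1 was higher (median 0.10). All 6 are also among the members or the further muscle lists above, so they add no separate values, and Myf5 was not read. In bulk RNA, fewer cells of a type and less RNA per cell cannot be told apart. The part of other cell types in the low myosin and myoglobin signals was not tested.

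**Figure D5:**
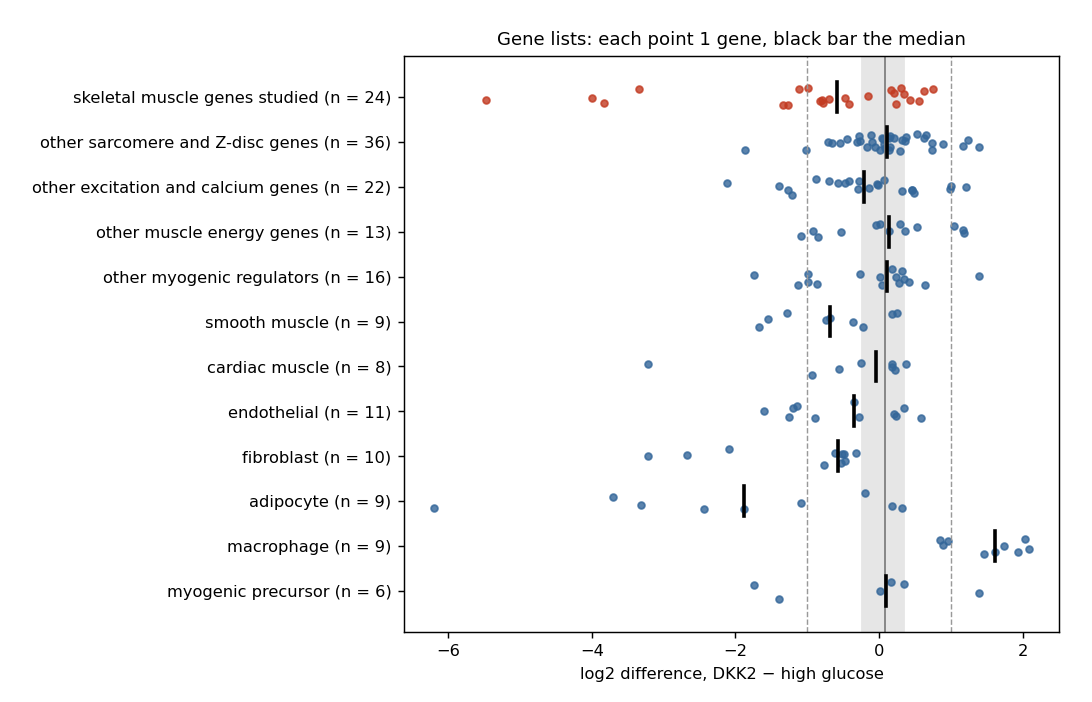
Log2 differences between DKK2 and high glucose for the members (red) and for each other list (blue), with 1 point per gene measured on both arrays, the median as a black bar and the quartiles of all genes as a grey band. The members' median of -0.58 lies below the band, as do those of the adipocyte, smooth muscle, fibroblast and endothelial markers, while the 4 other muscle lists have medians between -0.21 and 0.14 and macrophage markers 1.61.

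Summed over the members of each group, the arrays kept different orders. The myosin, actin and sarcomere frame genes summed to a scaled signal of 4763 in normal and 4369 in high glucose, and 1219 with DKK2. Acta1 alone made up 2825, 1712 and 708 of these sums. The order of the glucose arrays followed Acta1, while Myl1 and Myh8 were higher in high than in normal glucose. Troponins summed to 2955, 2917 and 1650. Calcium handling genes (179, 138 and 187) and myogenic factors (197, 149 and 150) were lowest in high glucose by a small margin or level with DKK2, and the sum of the oxygen and energy genes (7774, 11265 and 18114) was almost all Eno3, while Mb and Pygm were lowest with DKK2.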

How the data were processed

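Expression was measured in 3 pools of RNA, 1 per condition. Per the file headers, the deposited scanner files come from Feature Extraction 11.5.1.1 and hold a background-corrected processed signal intensity per spot. The deposited value table holds the same intensity as a mean of each probe's spots, neither logged nor scaled (99.8% or more of the probes lay within a fraction of 0.001). The headers name build mm9. Probes were named through RefSeq accessions in a table of assembly GRCm38, used for names and neighbours (27508 of 39429 probes with 1 symbol, the rest unnamed here).

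Control spots (1377 per array) and outlier spots (110 to 136) were left out. The values were log2 intensity, averaged over spots, minus each array's 75th percentile. Each gene was read on its brightest probe among those that passed the background flag anywhere, and differences needed the flag on both arrays. Otherwise it had a bound, provided no other probe of the gene was above background on the dim array.

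The members and lists were chosen with earlier results of these data known. The text names all 31 members. From each further muscle list it names up to 3 lower and 3 higher genes that were at least 2-fold apart and on the same side with normexp, with others added after their values were seen, and some genes of the marker lists, also after their values were seen. Alternatives were normexp (offset 50, on median signals, since the files hold no mean signal), quantile normalization, median scaling, no filter and a stricter filter (mean signal of at least 100) on dim probes, a mean of each gene's probes, the deposited table, and 3-fold in place of 2-fold. The counting was tested on simulated data. Normexp and quantile values came from limma 3.58.1 (R 4.3.3). All else was computed in Python 3.11.15, using pandas 2.3.3 and numpy 2.4.6, with figures by matplotlib 3.10.9.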

Additional observations from a re-analysis of the deposited data

How the results depend on the processing

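No paired analysis was possible because each condition had 1 array. In DKK2 against high glucose, the count of lower members (7) was 6 to 8 with normexp, quantile normalization, median scaling, the stricter filter, the mean over probes and the deposited table, 12 without the filter on dim probes and 4 with the 3-fold rule. None was higher in any setting. The median of -0.58 became -0.26 with normexp, -0.80 without the filter and -0.996 with the stricter filter. In DKK2 against normal glucose, the count of lower members (8) became 15 with normexp, 14 without the filter and 5 with the stricter filter, and the count of higher members (1) became 0 with the 3-fold rule. The median of -0.53 became -1.37, -0.95 and -0.79 with normexp, no filter and the stricter filter. In high against normal glucose, the count of lower members (2) became 14 with normexp, 1 with median scaling, 0 with the stricter filter and 0 with the 3-fold rule, and the count of higher members (2) became 0 with normexp, 0 with the stricter filter, 1 with the mean over probes and 0 with the 3-fold rule. The median of -0.09 became -0.94 with normexp and 0.13 with the stricter filter. Myh2 turned from 1.47 to -0.23 with normexp, and Ttn from 1.02 to -1.19 with normexp and -0.44 with the mean over probes. Fewer genes enter under the stricter filter (13 members) and more without a filter (31). Normexp adds the same offset to each array before scaling, which weighs most on the dim normal glucose array. How much of the normexp shifts this makes up was not tested, nor was the cause for the other settings. Low signal over background limits most members: 18 of 29 read under 100 on the DKK2 array.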

Other observations

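The acetylcholine receptor of the neuromuscular junction, through which nerves make muscle contract, was described by its subunit genes. Chrna1 read a scaled signal of 140 in normal and 149 in high glucose and of 57.0 with DKK2, and Chrnd read 40.9, 51.9 and 22.4, so that both stood low with DKK2 (-1.39 and -1.22 against high glucose, or -0.76 and -0.52 with normexp). Chrnb1 was highest with DKK2, at 54.0, 63.0 and 126 (0.99, or 0.63 with normexp). Chrng, the subunit of the fetal receptor, read 42.6, 29.5 and 40.6, and Chrne, which replaces it in the adult, read 8.47 (not well above background), 21.7 and 21.4. Musk, the kinase that gathers the receptors under the nerve ending, read 204, 521 and 390.0, and was higher in high than in normal glucose by 1.35 (0.54 with normexp).

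The voltage sensor of the muscle membrane stood highest in normal glucose. Its pore subunit gene Cacna1s read 325, 141 and 94.6 and its auxiliary subunit genes Cacnb1 and Cacng1 read 378, 221 and 159 and 73.1, 24.5 and 34.5. In high against normal glucose Cacna1s was at -1.21, Cacng1 at -1.58 and Cacnb1 at -0.77, and with normexp at -1.35, -1.77 and -1.08. Normexp put 19 of 21 measured excitation and calcium genes below 0 here, and the median of all genes at -0.26. The same side with normexp is therefore no support. The genes of this section were named after their values were seen, there was 1 array per condition, and no test was made.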
